A study of Mus musculus with 36 samples.

Results

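The potassium channel genes described here are the protein-coding mouse genes of the Kcn symbol families, that is, every gene of the mm10 annotation whose symbol starts with Kcn followed by letters and a number. The rule gave 93 genes of the 25552 genes to which a transcript in the files could be assigned, and it used no expression value. RNA was sequenced in 36 libraries of mouse brain cells, in 18 groups of 2 libraries: populations A, B, C, D, E and Neg from each of the olfactory bulb, the brainstem and the cortex. Strain C57/Bl6 and the cell type astrocyte are given for all 18 groups, including Neg, and no allele, treatment, age or sex is given. The labels do not explain Neg or the letters, nor how the cells were separated. They do not say that the libraries were made from different animals either, and the p-values below thus reflect library-to-library spread, part of which may be technical. The design text speaks of cell lines, whereas the sample labels name brain cells. Populations A to E are called lettered populations below.

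Potassium channels set the resting potential of cells and end electrical signals. Astrocytes take up the potassium that active neurons release, mainly through inward rectifier channels, whose pore is formed by the product of Kcnj10 alone or together with that of Kcnj16, and they also carry leak channels such as that encoded by Kcnk1. Neurons use other families: voltage-gated channels of the Shaker, Shab, Shaw and Shal groups (Kcna, Kcnb, Kcnc and Kcnd), the M-current channels (Kcnq), the calcium-activated channels (Kcnn and Kcnma1 with its beta subunits), the sodium-activated channels (Kcnt) and the G protein-gated inward rectifiers (Kcnj3, Kcnj6 and Kcnj9). Kcnip, Kcnab, Kcne and Kcnmb genes encode auxiliary subunits.

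Levels are FPKM (fragments per kilobase of transcript, scaled to the mapped fragments of the library) summed over the transcripts of a gene. The relative depth (coverage divided by FPKM) was low in 2 libraries, at 0.0695 in brainstem E 1 and 0.315 in olfactory bulb E 1, and ran from 1.16 to 4.08 in the rest. The interval deposited for transcripts near 10 FPKM extended by a median of 63.0% and 35.2% of the value to either side in those 2 libraries, and by 10.1 to 16.5% in the others. Between 2158 and 10438 genes reached 1 FPKM per library, and 8 libraries had fewer than 5000 (cortex Neg 2, both brainstem Neg, cortex A 2, cortex D 2, olfactory bulb E 1 and both brainstem E). The sum of all nuclear FPKM also differed, from 24129.5 to 63081.2 in Neg and from 23005.4 to 163132 in A to E. It was 87397.6 to 163132 in C and 23005.4 to 70446.7 in E. Levels as deposited keep these differences. Rescaled values, with each library set to the same summed FPKM, do not. Genes of another region were looked for with a list of 10 genes of olfactory bulb interneurons and neuroblasts. Their summed level was 60.6 FPKM in brainstem D replicate 2 and 30.5 FPKM in cortex E replicate 2, against at most 10.8 FPKM in the other brainstem and cortex libraries of A to E and 21.1 to 63.0 FPKM in those of the olfactory bulb. Some regional results are therefore also given without those 2 libraries, where stated. All other regional results include both. Astrocyte markers were measured in all groups: the summed level of 12 of them ran from 271 to 4260 FPKM in A to E and from 139 to 776 FPKM in Neg. Aldh1l1 was the marker listed at 0 in brainstem Neg 2 and in cortex D 2.

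Of the 93 members, 62 reached 1 FPKM in at least 2 libraries and were tested. Of the 31 others, 20 reached 1 FPKM in no library and 11 in 1 library. Kcna10, Kcne1, Kcne3, Kcnk16 and Kcnq1 were listed at 0 in all 36 libraries. At the other end, 8 members were at 1 FPKM or more in at least 30 libraries, and 11 had a mean of 5 FPKM or more. In order of their mean over the 36 libraries these were Kcnj10 (100.4 FPKM), Kcnip3 (16.6), Kcnk1 (14.4), Kcnn2 (11.5), Kcnj16 (8.79), Kcnj13 (7.03), Kcna2 (6.22), Kcna6 (6.16), Kcna1 (5.38), Kcne1l (5.23) and Kcnma1 (5.22). The list holds the glial channels, genes of the neuronal list (Kcnn2, Kcna2, Kcna6, Kcna1 and Kcnma1), the choroid plexus channel Kcnj13 and the auxiliary subunits Kcnip3 and Kcne1l.

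Kcnj10 (chr1:172341210-172374085, plus strand, mm10) was the most abundant member in 34 of the 36 libraries. Kcna1 led in brainstem Neg replicate 2 and Kcnn2 in cortex D replicate 2. In the olfactory bulb, Kcnj10 was at 149.9 and 123 FPKM in A, 119 and 181 in B, 368 and 178 in C, 86.1 and 34.8 in D, 38.6 and 121 in E, and 29.6 and 31.6 in Neg. In the brainstem it was at 194 and 132 FPKM in A, 99.0 and 128 in B, 247 and 213 in C, 104 and 91.1 in D, 24.6 and 69.8 in E, and 25.6 and 8.97 in Neg. In the cortex it was at 58.9 and 20.7 FPKM in A, 62.1 and 87.7 in B, 123 and 128 in C, 137 and 35.7 in D, 39.5 and 77.7 in E, and 36.4 and 12.4 in Neg. Of the 30 libraries of A to E, 26 lay above all 6 Neg libraries; the exceptions were cortex A 2, brainstem E 1, olfactory bulb D 2 and cortex D 2. By population the mean was 113 ± 63.1 FPKM in A, 113 ± 40.8 in B, 209 ± 91.5 in C, 81.4 ± 39.9 in D, 61.9 ± 35.3 in E and 24.1 ± 11.0 in Neg (SD, n = 6 libraries each). C was highest and Neg lowest, and A and B differed by far less than their SDs. Between regions, no difference of Kcnj10 passed the test: olfactory bulb minus cortex was 0.78 ± 0.36 on the log2(FPKM + 1) scale (SE, limma with Benjamini-Hochberg adjustment, adjusted p = 0.28), although after quantile normalization it passed (0.94, adjusted p = 0.021).

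**Figure D1:**
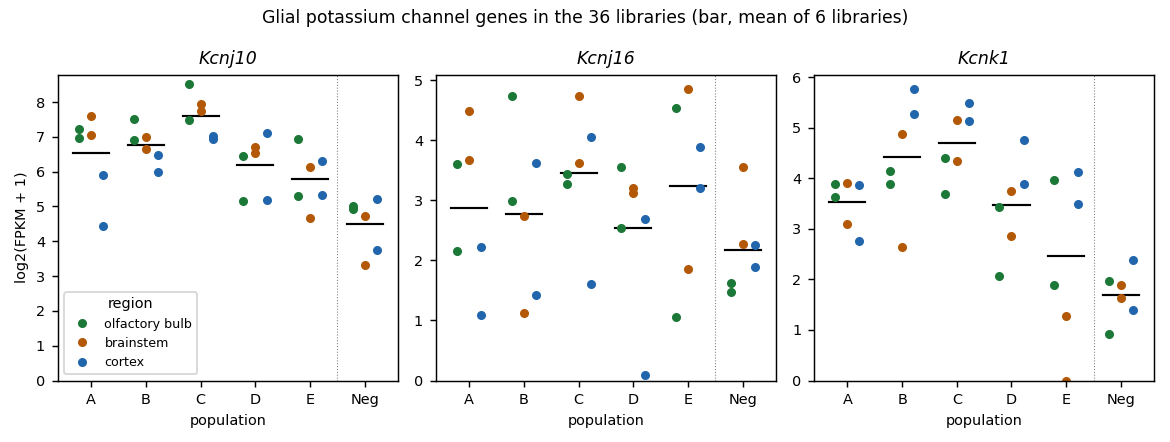
Level of the glial channels Kcnj10, Kcnj16 and Kcnk1 in each library on the log2(FPKM + 1) scale, by population and coloured by region, with a bar at the mean of the 6 libraries of a population. Kcnj10 and Kcnk1 lie lower in Neg than in most libraries of A to E, whereas the points of Kcnj16 overlap between all 6 populations.

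Kcnj10 has a close neighbour of the same gene family. Kcnj9, which encodes a G protein-gated inward rectifier of neurons, starts 11891 bp away on the opposite strand, and its mean was 1.18 FPKM against 100.4 FPKM for Kcnj10, which was the higher of the pair in all 36 libraries. Their promoter windows, 250 bases before to 50 bases after the RefSeq start (GRCm38.p6), are shown because the genes lie head to head and differ so widely in level. Capitals mark matches, on either strand, to the motifs searched: the full nuclear factor I site, TTGGCA as its partial form, ACAATG for SOX factors, ACAAAG likewise for SOX factors, CAGCACC as part of the REST element and GGGCGG for SP and KLF factors. Overlapping matches were all counted.
Kcnj10: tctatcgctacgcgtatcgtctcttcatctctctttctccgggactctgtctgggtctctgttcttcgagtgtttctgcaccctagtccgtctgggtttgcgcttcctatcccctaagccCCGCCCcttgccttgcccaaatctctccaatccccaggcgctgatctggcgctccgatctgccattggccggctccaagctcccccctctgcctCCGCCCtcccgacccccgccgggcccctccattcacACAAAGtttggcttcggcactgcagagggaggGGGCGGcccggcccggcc
Kcnj9: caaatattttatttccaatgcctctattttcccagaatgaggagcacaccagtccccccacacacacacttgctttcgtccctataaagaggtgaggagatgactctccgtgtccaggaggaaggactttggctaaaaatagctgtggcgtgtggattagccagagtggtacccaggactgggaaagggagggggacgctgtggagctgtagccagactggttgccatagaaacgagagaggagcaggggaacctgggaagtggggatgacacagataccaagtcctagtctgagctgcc
The window of Kcnj10, chr1:172340960-172341259 on the plus strand, holds 21 CpG dinucleotides at 63.7% G and C, with 1 match to ACAAAG and 3 to GGGCGG. The window of Kcnj9, chr1:172329273-172329572 on the minus strand, holds 5 CpG at 52.3% G and C and matched none of the motifs. Over all 32851 windows of the RefSeq table the median was 7 CpG, and over the 93 windows of the 68 members with an entry it was 9. GGGCGG occurs in 35.7% of all windows and in 48.4% of the members' windows, and ACAAAG in 18.7% and 15.1%. The other shares were 14.1% of all windows and 11.8% of the members' for TTGGCA, 12.6% and 6.45% for ACAATG, 7.14% and 10.8% for CAGCACC, and 0.0365% and 0 for the full nuclear factor I site. The matches are descriptions of these letters only.

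Kcnk1 (chr8:125995170-126030685) encodes a leak channel. Averaged over the regions it was lowest in Neg, as Kcnj10 was, but within the brainstem it was lower still in E. In the olfactory bulb, Kcnk1 was at 13.8 and 11.3 FPKM in A, 16.8 and 13.7 in B, 20.2 and 12 in C, 9.85 and 3.22 in D, 2.71 and 14.6 in E, and 2.90 and 0.897 in Neg. In the brainstem it was at 14.0 and 7.58 FPKM in A, 28.2 and 5.21 in B, 34.6 and 19.4 in C, 12.4 and 6.28 in D, 1.43 and 0 in E, and 2.10 and 2.69 in Neg. In the cortex it was at 13.5 and 5.76 FPKM in A, 37.8 and 53.4 in B, 44.0 and 34.0 in C, 26.2 and 13.9 in D, 10.2 and 16.5 in E, and 4.22 and 1.62 in Neg. The highest values were in the cortex, in B and C, and 26 of the 30 libraries of A to E lay above all Neg libraries. The mean over A to E was 12.9 ± 11.5 FPKM in the brainstem and 25.5 ± 16.1 FPKM in the cortex (SD, n = 10 each), a difference of -1.27 ± 0.36 (log2, SE, limma, adjusted p = 0.067). That difference passed the test when each library was rescaled to the same summed FPKM (-1.43, adjusted p = 0.020) and after quantile normalization (-1.15, adjusted p = 0.047). It also passed without brainstem B 1 (-1.49, adjusted p = 0.014), without cortex D 2 and without either olfactory bulb E library. Under 41 of the 48 alternative settings it did not pass. Over these 48 settings the difference ran from -1.68 to -0.39, with an adjusted p of up to 0.92. Olfactory bulb minus cortex was -0.95 ± 0.36 (adjusted p = 0.16).

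Kcnj16 (chr11:110968033-111027968), whose product joins that of Kcnj10 in mixed channels, was lower and more scattered. In the olfactory bulb it was at 11.1 and 3.46 FPKM in A, 6.96 and 25.7 in B, 9.80 and 8.67 in C, 10.8 and 4.85 in D, 1.09 and 22.2 in E, and 2.08 and 1.77 in Neg. In the brainstem Kcnj16 was at 11.8 and 21.5 FPKM in A, 5.69 and 1.17 in B, 11.4 and 25.8 in C, 7.73 and 8.24 in D, 2.61 and 28.0 in E, and 3.85 and 10.8 in Neg. In the cortex Kcnj16 was at 1.12 and 3.65 FPKM in A, 1.67 and 11.3 in B, 2.06 and 15.7 in C, 5.46 and 0.0603 in D, 8.27 and 13.7 in E, and 2.72 and 3.77 in Neg. The 2 libraries of a group often differed several-fold, and all populations overlapped. The value of 28.0 FPKM in brainstem E replicate 2 came from a coding-only transcript of 1260 bases. A to E minus Neg was 0.80 ± 0.49 for Kcnj16 (log2, SE, limma, adjusted p = 0.22), and -0.24 after rescaling. None of the regional differences of Kcnj16 passed the test (adjusted p between 0.46 and 0.90).

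The make-up of the family's RNA was compared between A to E and Neg as shares of its summed FPKM. The 93 members summed to a median of 305.6 FPKM in A to E (59.7 to 583, n = 30) and 107.8 FPKM in Neg (50.04 to 172, n = 6), which is 0.286% (0.161 to 0.466%) and 0.241% (0.207 to 0.299%) of all nuclear FPKM. Kcnj10 alone took a median of 38.9% of the members' sum in A to E (19.3 to 65.9%) and 18.7% in Neg (17.2 to 47.1%). The neuronal list of 36 members took 28.7% in A to E (12.3 to 62.8%) and 54.9% in Neg (28.0 to 66.4%). Among the lettered populations, the neuronal share was lowest in C, with a median of 19.7%, and highest in D, with 46.9%. The ranges overlap in each of these pairs, and the shares were not tested. In such bulk libraries fewer cells of a type and less RNA per cell cannot be told apart.

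**Figure D2:**
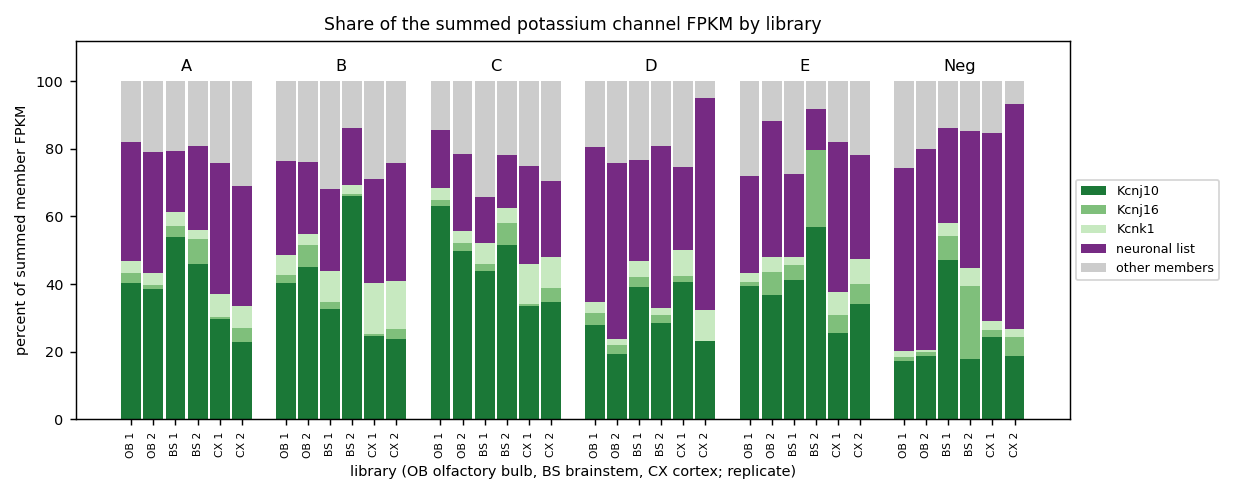
Percent of the summed FPKM of the 93 members taken by Kcnj10, Kcnj16, Kcnk1, the neuronal list and the other members, in each of the 36 libraries. The Kcnj10 band has a median of 38.9% in A to E and 18.7% in Neg, and the neuronal band 28.7% and 54.9%.

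Which channel genes differed between A to E together and Neg was tested in 30 against 6 libraries. Kcnj10, Kcnk1 and the auxiliary subunit gene Kcnip3 were higher in A to E, each by more than 2 on the log2(FPKM + 1) scale, and Kcnma1, the pore of the large-conductance calcium-activated channel, was lower. Of the 62 members tested, 10 were called at an adjusted p under 0.05, 9 higher and 1 lower, or 16.1% against a background of 20.3% of all 13656 genes (20.2% higher and 0.146% lower). On the deposited scale the members' share was thus not above that of all genes, and their median difference was 0.23 against 0.51 for all genes. On the rescaled values 2 members were called higher and 2 lower, or 6.45% against 4.1% of all genes (2.28% higher and 1.82% lower). After quantile normalization 3 were higher and 5 lower, or 12.9% against 6.88% (2.89% higher and 3.99% lower). The all-gene median depended on the scale, at 0.14 after rescaling and 0.00 after quantile normalization, so small positive differences have to be read against it; the members' medians were then -0.10 and -0.22.

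Kcnj10 averaged 115.7 ± 74.6 FPKM in A to E and 24.1 ± 11.0 FPKM in Neg (SD, n = 30 and 6), a difference of 2.08 ± 0.36 (log2, SE, limma, adjusted p = 0.000409) that passed the test on all 3 scales and under all 48 alternative settings. The size of the difference depended on the scale, at 0.95 after rescaling and 0.94 after quantile normalization. Kcnk1 averaged 16.8 ± 13.1 FPKM in A to E and 2.40 ± 1.15 FPKM in Neg, a difference of 2.02 ± 0.36 (adjusted p = 0.000527) that narrowly failed after rescaling (1.07, adjusted p = 0.074). Of the glial list 2 of 3 genes were thus called higher, Kcnj16 being the other. Astrocyte markers moved the same way: 12 of 12 were called higher in A to E. So were 4 of 6 choroid plexus, 3 of 6 oligodendrocyte precursor, 3 of 7 endothelial and 1 of 12 microglial markers. Of 10 mature oligodendrocyte markers 1 was higher and 1 lower. The part of these markers in the results was not tested. Kcnip3 (chr2:127456498-127522094), a calcium-binding partner of Shal channels that also binds DNA, ran from 2.04 to 55.5 FPKM in A to E (median 17.5) and from 0.377 to 5.87 FPKM in Neg (median 2.88). In 25 of 30 libraries it lay above all Neg libraries, with a difference of 2.12 ± 0.40 (adjusted p = 0.00101) that failed after rescaling (1.29, adjusted p = 0.065) and quantile normalization (1.25, adjusted p = 0.052).

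Of the small-conductance calcium-activated channels, which shape the pauses after neuronal spikes, Kcnn2 and Kcnn3 were called higher in A to E, and Kcnn1 was not (-0.06, limma, adjusted p = 0.80). Kcnn3 (chr3:89520164-89675132) had 0.0968, 3.49 and 12 FPKM as lowest, median and highest value in A to E, and 0, 0.321 and 1.73 FPKM in Neg. The difference of Kcnn3 was 1.40 ± 0.34 (log2, SE, limma, adjusted p = 0.00654) and was called on all 3 scales. Kcnn2 averaged 13.1 FPKM in A to E and 3.54 FPKM in Neg (1.44 ± 0.35, adjusted p = 0.00616), and Kcna2, a Shaker channel of axons, 7.0 and 2.33 FPKM (1.12 ± 0.32, adjusted p = 0.0157). Neither passed after rescaling, and the same holds for Kcna6 (1.51, adjusted p = 0.0271), Kcng4 (0.91, adjusted p = 0.0473) and Kcnd2 (0.75, adjusted p = 0.0497). Kcna6, another Shaker channel, rests largely on a coding-only transcript of 1590 bases, which gives 5.03 of its mean of 6.16 FPKM; without transcripts of that kind its difference was 0.58 (adjusted p = 0.14). Leaving out any Neg library other than cortex Neg 1 ended the call of Kcna6 (adjusted p from 0.063 to 0.20), and that of Kcna2 was lost without olfactory bulb Neg 2, cortex Neg 2 or brainstem Neg 2 (0.064 to 0.083). Kcng4 lost its call in 23 of 36 such runs.

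Kcnma1 (chr14:23289431-24014491) was the member called lower in A to E on the deposited scale, and it was among the 2 members lower after rescaling and the 5 lower after quantile normalization. It had 12.7 FPKM at most in A to E, with a median of 3.57 and a lowest value of 0, and 11.9 and 15.8 FPKM in olfactory bulb Neg, 5.0 and 1.65 in brainstem Neg and 15.3 and 6.73 in cortex Neg. The groups overlap, and 5 of the 30 libraries of A to E lay below all Neg libraries. The difference was -1.0 ± 0.29 (log2, SE, limma, adjusted p = 0.0188), and -2.08 and -2.04 after rescaling and quantile normalization (adjusted p = 5.69e-05 and 3.46e-05). Of its mean of 5.22 FPKM, 2.44 came from a transcript of 1351 bases that lies within exons at its 3′ end; when transcripts of that kind were left out the difference was -0.11 (adjusted p = 0.76), and with the run of library numbers as a covariate it was -0.57 (adjusted p = 0.23). These numbers, in the titles, form a lower run, with all 6 Neg libraries, and a higher run of 15 libraries. Leaving out olfactory bulb Neg 2, cortex Neg 1 or brainstem Neg 1 ended the call as well (-0.94, -0.82 and -0.81, adjusted p = 0.068, 0.073 and 0.094).

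Of the neuronal list, 34 of 36 members were tested, and 4 were called higher and 1 lower in A to E, against 20.2% and 0.146% of all genes, with a median difference of 0.09. After rescaling none of the list was higher and 2 were lower (median -0.37). After quantile normalization none was higher and 3 were lower (median -0.46). Of all genes, 2.28% were higher and 1.82% lower after rescaling, with a median of 0.14. For quantile normalization these all-gene shares were 2.89% and 3.99%, with a median of 0.003. Kcna1, the Shaker channel with the highest level among those not called, averaged 5.49 FPKM in A to E and 4.86 FPKM in Neg (0.09, adjusted p = 0.87). None of the 5 microglial and immune cell channels and none of the 3 tested vascular and choroid plexus channels were called. None of 12 neuronal markers was called either, with a summed level of 43.4 to 623 FPKM in A to E and 109 to 511 FPKM in Neg.

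**Figure D3:**
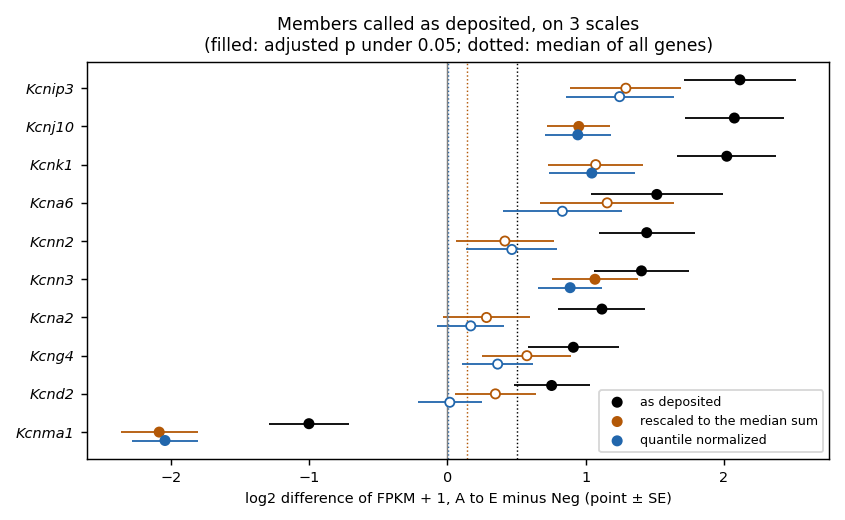
Difference A to E minus Neg on the log2(FPKM + 1) scale with its SE for the 10 members called, on the deposited scale, after rescaling each library to the median summed FPKM and after quantile normalization; filled points have an adjusted p under 0.05 and dotted lines mark the median of all genes. Kcnj10 and Kcnn3 are filled on the higher side and Kcnma1 on the lower side on all 3 scales.

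Each lettered population was compared with the other lettered ones (6 against 24 libraries). In A no member was called, as no gene was (0 of 13656, 0%; limma). At an unadjusted p under 0.05 there were 3 members, against 3.51% of all genes. In D no member was called either, against 13 genes in all (0.0952%). Here 5 members had an unadjusted p under 0.05, against 8.68% of all genes. A test of whether the population differences depended on the region called none of the members and 9 genes in all (0.0659%), with 11 members at an unadjusted p under 0.05 against 6.83% of all genes.

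Of the 5 tested channel genes listed for microglia and immune cells, 3 were called higher in population B, though not in every region. The called members were Kcnk13, Kcnk6 and Kcnn4, all higher, or 3 of 62 against a background of 15.3%, a lower share among members than among all genes. Kcnk13 (chr12:99964499-100062682), a tandem-pore leak channel of microglia, had 0.498 and 0.204 FPKM in olfactory bulb B, 1.43 and 5.11 in brainstem B and 1.49 and 1.94 in cortex B, and from 0 to 0.933 FPKM in the other 24 libraries. The 4 brainstem and cortex B libraries were above all of those, and the olfactory bulb ones were not. The difference was 1.07 ± 0.18 (log2, SE, limma, adjusted p = 0.000108; after rescaling it passed at 0.010 and after quantile normalization it did not, at 0.18). Kcnk6, a related leak channel, averaged 1.44 FPKM in B and 0.300 FPKM in the others (0.80 ± 0.23, adjusted p = 0.0182). Kcnn4, the intermediate-conductance calcium-activated channel of immune cells, was called at 0.59 ± 0.19 (adjusted p = 0.0316), but its values were 6.00 and 3.32 FPKM in olfactory bulb B, 0.342 and 0 in brainstem B and 0.0447 and 0 in cortex B. Only 1 of 6 B libraries was above all of the other 24, whose highest value of 3.67 FPKM was in olfactory bulb D. Kcnk6 and Kcnn4 lost the call after rescaling (adjusted p = 0.18 and 0.16), Kcnk6 also without olfactory bulb B 1, cortex B 2 or brainstem B 1 (0.11 to 0.14), and Kcnn4 without olfactory bulb B 1, either cortex B library or brainstem B 1 (0.074 to 0.15). The remaining genes of that list were not called: Kcna3 differed by 0.59 (adjusted p = 0.087) and Kcnj2 by 0.38. All 12 microglial and macrophage markers were called higher in B, with a summed level of 874 to 1652 FPKM in B and 12 to 723 FPKM in the others. Higher in B were also 4 of 6 oligodendrocyte precursor, 4 of 10 mature oligodendrocyte, 3 of 7 endothelial, 3 of 8 mural cell and 3 of 12 astrocyte markers. Lower in B were 4 of 12 neuronal and 1 of 10 mature oligodendrocyte markers. The part of these markers in the results was not tested. Leaving out olfactory bulb B 1 or brainstem B 1 left 1 call each, and leaving out brainstem B 2 gave 6.

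Population C had the highest mean levels of Kcnj10 and Kcnk1, but not of Kcnj16 (12.2 FPKM in C and 12.6 FPKM in E; C minus the others 0.61, limma, adjusted p = 0.43). Kcnj10 averaged 209 ± 91.5 FPKM in C and 92.3 FPKM in the other lettered populations, with 3 of 6 C libraries above all of the others, and Kcnk1 averaged 27.4 ± 12.1 and 14.1 FPKM. The differences were 1.30 ± 0.36 for Kcnj10 (log2, SE, limma, adjusted p = 0.0336) and 1.24 ± 0.36 for Kcnk1 (adjusted p = 0.0405). For Kcnk1, however, 0 of 6 C libraries were above all of the others, and the highest value, 53.4 FPKM, was in cortex B 2. Kcnk1 was also higher in B than in the other lettered populations, by 0.89, which did not pass the test (adjusted p = 0.095). Kcnip3 (1.33, adjusted p = 0.0471), the mechanosensitive leak channel Kcnk2 (1.14, adjusted p = 0.0332) and the choroid plexus subunit Kcne2 (1.58, adjusted p = 0.0224) were also called, which makes 5 of 62 members against a background of 7.08%. Kcne2 had 0 and 1.10 FPKM in olfactory bulb C, 37.6 and 5.98 in brainstem C and 8.94 and 5.57 in cortex C, and a median of 0.839 FPKM (0 to 6.58) in the other 24 libraries. Kcnj13, the choroid plexus inward rectifier, had 0.117 and 8.26 FPKM in olfactory bulb C, 55.4 and 2.45 in brainstem C and 30.03 and 17.5 in cortex C, and was not called (1.57, adjusted p = 0.099). None of the calls held after rescaling (adjusted p from 0.44 to 0.72; 0% of all genes were called) or quantile normalization (0.0366% called). No call held within the lower run of library numbers or with the run as a covariate. Among markers, 7 of 12 of astrocytes and 3 of 6 of the choroid plexus, a list that includes Kcnj13, were called higher in C; the astrocyte sum was 1776 to 3976 FPKM in C and 271 to 4260 FPKM in the others, the choroid plexus sum 30.7 to 23840 FPKM and 0 to 5703 FPKM. Higher in C were also 4 of 6 oligodendrocyte precursor, 3 of 12 microglial and 1 of 8 mural cell markers. The part of these markers in the results was not tested. Leaving out olfactory bulb C 1, cortex C 1 or brainstem C 1 left no call, brainstem C 2 left 1 and olfactory bulb C 2 left 2, and over all libraries the number ran from 0 to 9.

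Population E had lower levels of many channel genes as deposited, and none of the lower calls held on either other scale. Of 62 members, 20 were called lower and 1 higher, or 33.9% against a background of 42.2% (42.1% lower and 0.11% higher). The largest were Kcnj13 (-1.79, limma, adjusted p = 0.0216), Kcnip3 (-1.63, 0.00376), Kcnk1 (-1.57, 0.00208), the auxiliary subunit Kcne1l (-1.57, 0.0245), Kcnn2 (-1.54, 0.00190), Kcna6 (-1.53, 0.0152), the beta subunit Kcnab2 (-1.35, 0.00596) and Kcna2 (-1.06, 0.0117), each as log2 difference and adjusted p. E holds the 2 shallowest libraries of the series. After rescaling 2 members were called, both higher in E (3.23%, against 1.46% of all genes higher and 10.6% called in either direction). After quantile normalization 5 were called, all higher (8.06%, against 3.84% higher and 8.05% in either direction). Without the 2 shallowest libraries 5 were called, and the share of all genes is not given for that setting. All E and D libraries are in the higher run of library numbers, and with the run as a covariate no member was called. Kcnj10 shows the dependence: it averaged 61.9 ± 35.3 FPKM in E and 129 FPKM in the other lettered populations (-0.99 ± 0.36, adjusted p = 0.0308), but the difference was 0.19 after rescaling and 0.12 after quantile normalization. Its call also ended without olfactory bulb E 1, cortex E 1 or brainstem E 1 (adjusted p = 0.16, 0.12 and 0.14). Kcnd1, Kcnk3 and Kcnn4 were listed at 0 in all 6 E libraries. All were low in the other 24 lettered libraries too. There Kcnn4 was at 0 in 13, and the medians of Kcnd1 and Kcnk3 were 0.567 and 0.368 FPKM. The members' median difference was -0.44, against -0.66 for all genes. Lower in E were also 9 of 12 astrocyte, 11 of 12 microglial and all 6 choroid plexus markers, the last list including Kcnj13 itself. The same held for all 6 oligodendrocyte precursor, 6 of 7 endothelial, 4 of 8 mural cell, 3 of 10 mature oligodendrocyte and all 5 blood cell markers. The part of these markers in the results was not tested.

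Kcna4, a fast-inactivating Shaker channel, was the member that was higher in E. It had 4.70 and 2.10 FPKM in olfactory bulb E, 0.909 and 0 in brainstem E and 2.69 and 3.69 in cortex E, and a median of 0.638 FPKM (0 to 4.91) in the other 24 libraries. The high value among those was brainstem D replicate 2, and the groups overlap. The difference was 0.76 ± 0.24 (log2, SE, limma, adjusted p = 0.0153) and 1.43 after rescaling, called on all 3 scales. The call of Kcna4 was lost with the run as a covariate, and without olfactory bulb E 1 or brainstem E 1 (adjusted p = 0.079 and 0.081).

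The regions were compared over A to E, 10 libraries each. Several neuronal channels were higher in the olfactory bulb than in the cortex: 11 of 62 members were called higher and none lower, 17.7% against a background of 3.74% (3.08% higher). Of the neuronal list, 8 of 34 tested members were called higher, with a median difference of 0.28 against 0.14 for all genes. After rescaling 6 were higher, and after quantile normalization 3 were higher and 1 lower. Of all 13656 genes, 388 were higher and 97 lower after rescaling, and 292 higher and 177 lower after quantile normalization. Kcnb2 (chr1:15287254-15723750), a delayed rectifier of the Shab group, ran from 0.335 to 7.58 FPKM in the olfactory bulb with a median of 2.03, and from 0 to 0.822 FPKM in the cortex with a median of 0.0512. In the olfactory bulb 8 of 10 libraries were above all of the cortex, and the highest cortical value was cortex E 2, which carries olfactory bulb genes. The difference of Kcnb2 was 1.5 ± 0.27 (log2, SE, limma, adjusted p = 0.000668), and 1.57 without the 2 libraries with genes of another region.

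Kcnt1, a sodium-activated channel, had a median of 3.94 FPKM in the olfactory bulb (0.185 to 9.76) and 0.726 FPKM in the cortex (0 to 1.72), with 9 of 10 olfactory bulb libraries above the cortex (1.52 ± 0.34, log2, SE, limma, adjusted p = 0.00737). Its call was lost with the most abundant transcript alone (0.60, adjusted p = 0.49) and within the lower run of library numbers (1.04, adjusted p = 0.11). Kcnj3, a subunit of the G protein-gated inward rectifier, had a median of 3.5 FPKM in the olfactory bulb (1.15 to 6.94) and 0.543 FPKM in the cortex (0 to 8.18), where the 8.18 was cortex E 2. Its difference was 1.41 ± 0.32 (adjusted p = 0.00737), and 1.66 without the 2 libraries (adjusted p = 0.000267). Kcnn4 (chr7:24370263-24386690) had 2.71 and 1.98 FPKM in olfactory bulb A, 6.00 and 3.32 in B, 0.761 and 0.252 in C, 0.361 and 3.67 in D and 0 and 0 in E, whereas 9 of 10 cortex libraries were listed at 0 and the other had 0.0447 FPKM. Its difference was 1.21 ± 0.18 (adjusted p = 9.75e-05). Kcnb2, Kcnj3 and Kcnn4 were called under all 48 alternative settings. Kcnab3, a beta subunit of Shaker channels (1.64, adjusted p = 0.0244), Kcnc1, a Shaw channel of fast-spiking neurons (1.2, 0.0383), Kcnd3 of the Shal group (1.19, 0.0245) and its partner Kcnip2 (0.98, 0.0409) followed. Kcnab3 (adjusted p = 0.068 and 0.16) and Kcnip2 (0.079 and 0.12) failed after rescaling and after quantile normalization, and Kcnc1 (0.051) and Kcnd3 (0.070) after quantile normalization. In runs that left out 1 library, Kcnc1 and Kcnip2 lost the call in 14 of 36 each and Kcnab3 and Kcnd3 in 7 each; without the 2 libraries with genes of another region Kcnip2 lost it (0.90, adjusted p = 0.061). Markers moved with these genes: all 9 tested genes of olfactory bulb interneurons and neuroblasts and 3 of 12 neuronal markers were called higher, and their part was not tested. Without cortex A 2, olfactory bulb B 2 or cortex C 2 there were 6 calls, and without olfactory bulb A 1, olfactory bulb A 2, cortex B 2 or cortex E 1 there were 7.

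**Figure D4:**
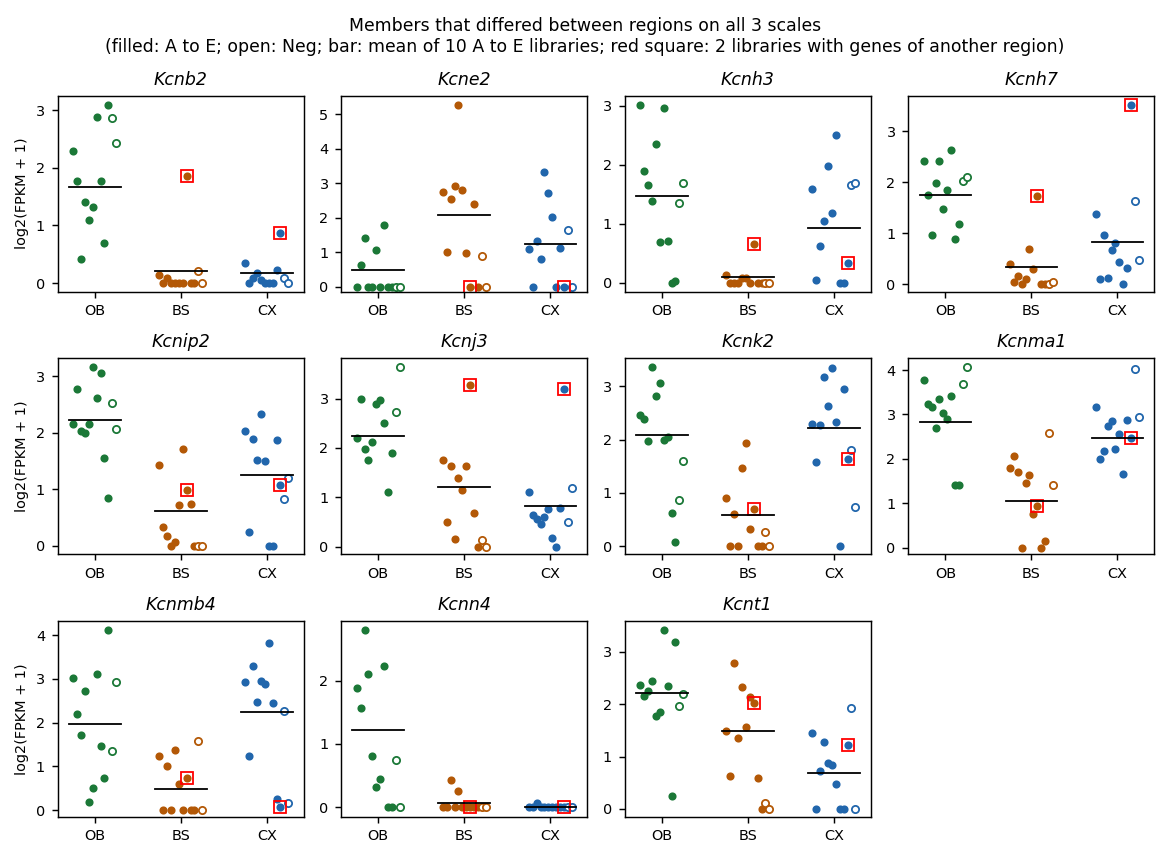
Level on the log2(FPKM + 1) scale of the 11 members called on all 3 scales in a comparison of regions, in every library of the olfactory bulb, brainstem and cortex; filled points are A to E, open points Neg, bars the mean of the 10 libraries of A to E, and red squares the 2 libraries with genes of another region. Kcnb2 and Kcnn4 lie near 0 in most brainstem and cortex libraries, whereas Kcnma1, Kcnmb4 and Kcnk2 have their lowest means in the brainstem.

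The brainstem differed from the cortex in the large-conductance channel. Called were 4 of 62 members, all lower in the brainstem, 6.45% against a background of 1.71% (1.24% lower): Kcnmb4, Kcnk2, Kcnma1 and Kcnt2. Kcnma1, the pore subunit, ran from 0 to 3.21 FPKM in the brainstem (median 1.32) and from 2.15 to 7.93 FPKM in the cortex (median 4.71), with 7 of 10 brainstem libraries below all cortex libraries. Kcnmb4 (chr10:116417861-116473878), its beta subunit in neurons, ran from 0 to 1.60 FPKM in the brainstem (median 0.254, 5 libraries at 0) and from 0.0471 to 13.2 FPKM in the cortex (median 5.47). The differences were -1.42 ± 0.29 for Kcnma1 (log2, SE, limma, adjusted p = 0.00569) and -1.75 ± 0.41 for Kcnmb4 (adjusted p = 0.0175), and each was called on all 3 scales. Kcnma1 lost the call without the short transcript within its exons (-0.99, adjusted p = 0.076). Kcnk2 (chr1:189207930-189402273) had a median of 0.389 FPKM in the brainstem (0 to 2.84) and 3.98 FPKM in the cortex (0 to 9.14), a difference of -1.63 ± 0.31 (adjusted p = 0.00275) that was lost with the most abundant transcript alone (-1.30, adjusted p = 0.13). Kcnt2, the other sodium-activated channel, averaged 0.240 and 1.38 FPKM in the brainstem and in the cortex (-0.87 ± 0.23, adjusted p = 0.0486), a call lost in 27 of 36 runs that left out a library. Within the lower run of library numbers the values were -1.84 for Kcnmb4, -1.60 for Kcnk2 and -1.04 for Kcnma1, and none passed the test (adjusted p = 0.14, 0.060 and 0.27). Of 12 neuronal markers 4 were called lower in the brainstem, with a summed level of 43.4 to 248 FPKM in the brainstem and 101 to 363 FPKM in the cortex, and their part was not tested. Leaving out cortex A 1 or brainstem A 2 left 2 calls each, and ended that of Kcnmb4 (adjusted p = 0.060 and 0.054).

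The promoter windows of Kcnma1 and Kcnmb4 are shown because the products of the pair assemble into the same channel and both genes were lower in the brainstem; capitals mark the same motifs as above.
Kcnma1: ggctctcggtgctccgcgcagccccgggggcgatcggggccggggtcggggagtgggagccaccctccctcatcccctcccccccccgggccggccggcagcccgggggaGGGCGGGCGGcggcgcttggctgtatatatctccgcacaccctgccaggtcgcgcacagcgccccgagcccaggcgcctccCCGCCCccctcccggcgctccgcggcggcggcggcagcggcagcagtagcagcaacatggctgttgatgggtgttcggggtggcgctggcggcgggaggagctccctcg
Kcnmb4: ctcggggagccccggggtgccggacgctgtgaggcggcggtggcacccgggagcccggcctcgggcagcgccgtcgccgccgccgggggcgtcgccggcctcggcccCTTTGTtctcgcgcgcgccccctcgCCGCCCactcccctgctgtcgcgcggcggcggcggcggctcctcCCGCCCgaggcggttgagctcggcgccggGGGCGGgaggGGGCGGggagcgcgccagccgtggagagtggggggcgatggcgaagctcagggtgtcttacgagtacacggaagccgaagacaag
The window of Kcnma1, chr14:24004156-24004455 on the minus strand, holds 36 CpG at 78% G and C, with 3 matches to GGGCGG, of which 2 overlap. The window of Kcnmb4, chr10:116473474-116473773 on the minus strand, holds 48 CpG at 79% G and C, with 1 match to ACAAAG and 4 to GGGCGG. Both lie far above the median of 7 CpG of all windows.

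Against the brainstem, the olfactory bulb had 13 members higher and 1 lower, 22.6% of those tested against a background of 5.16% (4.18% higher and 0.974% lower). Without brainstem D 2 and cortex E 2 the number was 22, with all 14 among them. The share of all genes called under that setting is not given here, so this rise cannot be set against it. Kcnma1 led: it ran from 1.66 to 12.7 FPKM in the olfactory bulb (median 7.56) and from 0 to 3.21 FPKM in the brainstem, with 8 of 10 olfactory bulb libraries above the brainstem (1.79 ± 0.29, log2, SE, limma, adjusted p = 0.000308). Kcnmb4 (1.48, adjusted p = 0.0269) and Kcnk2 (1.49, adjusted p = 0.00332) differed in the same direction; Kcnmb4 lost its call in 9 of 36 runs that left out a library. Over all 48 alternative settings Kcnmb4 lost it in 13 (lowest difference 0.65, highest adjusted p 0.59). Kcnk2 lost it in 1 of the 48 (lowest difference 0.59, highest adjusted p 0.47). Kcnip2, the Shal partner, had a median of 3.44 FPKM in the olfactory bulb (0.804 to 7.93) and 0.455 FPKM in the brainstem (0 to 2.26), a difference of 1.62 ± 0.28 (adjusted p = 0.000542). Kcnh3 and Kcnh7, channels of the ether-a-go-go family in neurons, had medians of 1.88 and 2.49 FPKM in the olfactory bulb, against 0 and 0.0968 FPKM in the brainstem. Their differences were 1.37 (adjusted p = 0.00757) and 1.41 (adjusted p = 0.00756). Kcnb2 (1.47, adjusted p = 0.000917) and Kcnab3 (1.76, adjusted p = 0.0124) were higher here as against the cortex, and the comparisons share the olfactory bulb libraries. Kcnj6, the G protein-gated partner of Kcnj3, was not called; its highest value, 36.5 FPKM, was in brainstem D 2, with 26.7 FPKM in olfactory bulb E 2 next.

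Kcne2 was the member lower in the olfactory bulb, with a median of 0 FPKM (0 to 2.47, 6 of 10 libraries at 0) against 4.54 FPKM in the brainstem (0 to 37.6), a difference of -1.57 ± 0.39 (log2, SE, limma, adjusted p = 0.0148). It was called on all 3 scales. Of 6 choroid plexus markers, 5 were called lower in the olfactory bulb, where their sum was 0 to 637 FPKM, against 3.34 to 23840 FPKM in the brainstem. Of 12 neuronal markers 7 were called higher and 1 lower in the olfactory bulb (105 to 623 FPKM in sum, against 43.4 to 248 FPKM in the brainstem), 8 of 9 interneuron and neuroblast genes were higher, and 7 of 10 mature oligodendrocyte markers were lower. The part of these cell types in the channel differences was not tested.

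**Figure D5:**
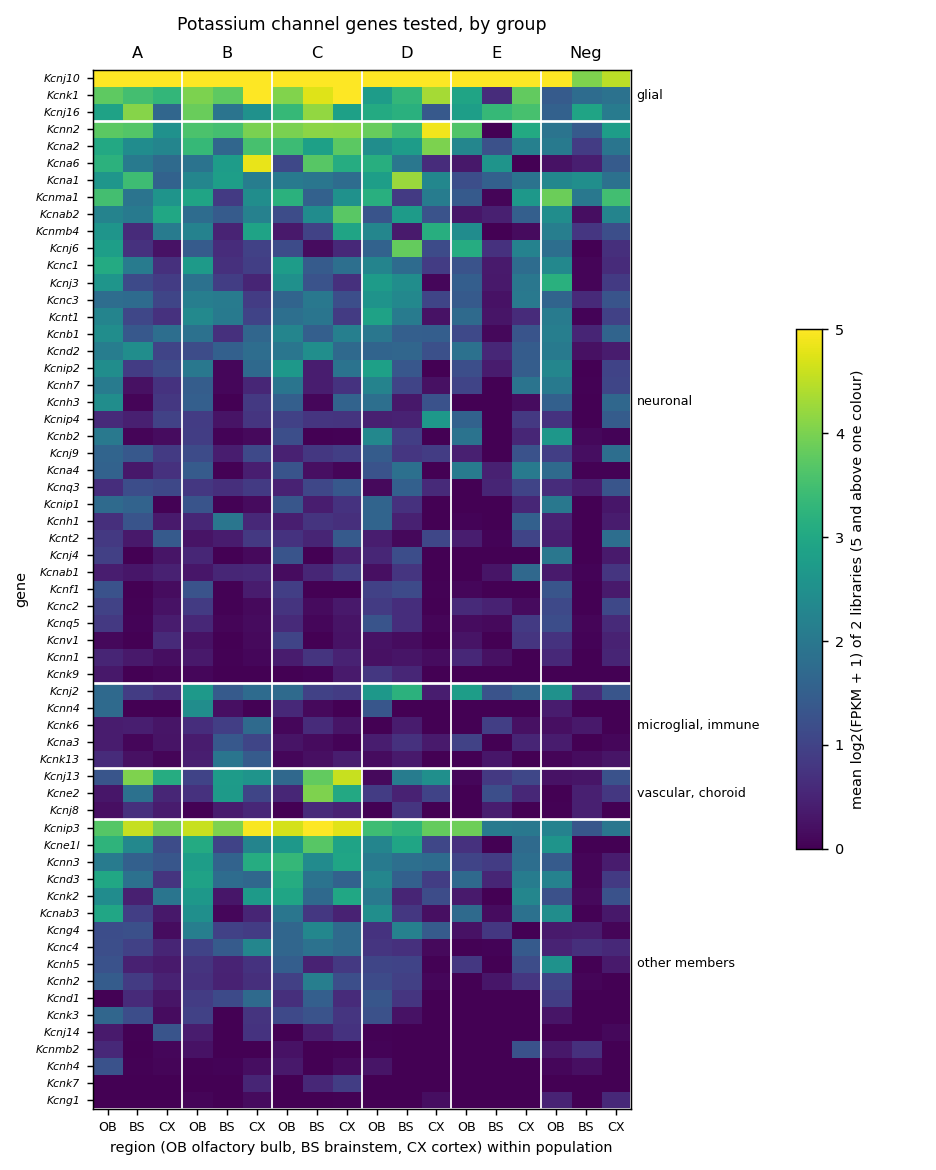
Mean log2(FPKM + 1) of the tested members described here in the 18 groups of 2 libraries, ordered by list, with the colour scale capped at 5. The row of Kcnj10 reaches the cap in most groups, and many rows of the neuronal list are lighter, that is higher, in the olfactory bulb than in the brainstem.

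Members that adjoin each other on a chromosome often differed in level. Kcna2 was above its neighbour Kcna3, a lymphocyte and microglial Shaker channel, in 34 of 36 libraries (means 6.22 and 0.446 FPKM), and Kcna1 above Kcna5 in all 36 (5.38 and 0.0657 FPKM). Kcna1 and Kcna6 were close, with Kcna1 higher in 19 and Kcna6 in 17 libraries. Kcnj16 was above Kcnj2 in 28 of 36 libraries (8.79 and 2.93 FPKM), and Kcnj6 above Kcnj15 in 32. The spans of Kcnip1 and Kcnmb1 overlap on opposite strands, and the cDNA does not mark the strand; whether their exons share reads was not tested.

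Genes that work with these channels in potassium handling, a list of 32 pump subunits, cotransporters and anchoring proteins of which 31 were tested, were also compared. Between A to E and Neg 14 were called higher and none lower, with a median of 0.82, against 20.2% of all genes higher and an all-gene median of 0.51. After rescaling 6 were higher (median 0.14) and after quantile normalization 7 (median 0.09). Of all genes, 2.28% and 2.89% were higher on these scales, with medians of 0.14 and 0.003. The astrocyte pump regulator Fxyd1 averaged 96.1 FPKM in A to E and 15.8 FPKM in Neg (3.55 ± 0.71, log2, SE, limma, adjusted p = 0.00152), and the astrocyte pump subunit Atp1b2 (2.62, adjusted p = 2.16e-05) and the anchor Dag1 (2.59, adjusted p = 0.000101) were likewise higher, all on the 3 scales. In C, 5 were higher (7.08% of all genes were called), led by Mlc1 (2.38, adjusted p = 0.0195), and none after rescaling or quantile normalization. In E 20 were lower (42.1% of all genes), led by Fxyd1 (-3.29) and Mlc1 (-2.71), which held on all 3 scales. After rescaling 3 were lower in E, and after quantile normalization 3 were lower and 3 higher. Of all 13656 genes, 1241 were lower and 200 higher in E after rescaling, and 574 lower and 525 higher after quantile normalization. By region, Fxyd6, another pump regulator, averaged 17.4 FPKM in the olfactory bulb, 3.45 FPKM in the brainstem and 2.38 FPKM in the cortex, and was called against both (2.24 and 2.26). Lrrc55, an auxiliary subunit of the large-conductance channel, averaged 1.72 FPKM in the olfactory bulb and 0.382 FPKM in the brainstem (1.05, adjusted p = 0.0158).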

How the data were processed

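Per the labels' protocols, total RNA was extracted with a NucleoSpin column kit, and cDNA was made with the NuGEN Ovation RNA-Seq V2 system from random and oligo dT primers, without a strand mark, and sequenced on an Illumina HiSeq instrument. Per the submitters' processing notes, bcl2fastq 1.8.3, TopHat and Cufflinks were used with mm10; for TopHat and Cufflinks no version is given in the sources used here. The deposited tables give FPKM with its interval for 63241 transcripts, per the file headers. They also give each transcript's coverage, deposited by the authors as mean read depth, which was used only to read depth.

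Transcripts were assigned to genes of GENCODE vM21 by position (54056 of 63241, 85.5%, of which 1502 lay within the exons of a single protein-coding gene; bedtools 2.31.1), which covers 93.4 to 98.5% of nuclear FPKM, and FPKM was summed per gene. FPKM is relative to each library's mapped fragments and keeps no counts, so no count model was used. Values were tested as log2(FPKM + 1) with limma 3.58.1 in R 4.3.3 (18 group means, 18 residual degrees of freedom, empirical Bayes with trend), with Benjamini-Hochberg adjustment over the 13656 genes at 1 FPKM or more in at least 2 libraries and a threshold of 0.05; a difference understates the change of low genes. The test was checked on simulated data. Replicates were numbered in accession order. Alternatives were 2 other scales, a pseudocount of 0.1, no filter, the transcript with the highest mean, array quality weights, a covariate for the run of library numbers (2 runs in the titles; the higher one has 15 libraries), the lower run by itself, and leave-one-out and doubtful-library runs; the assignment by span alone was added after seeing the data. Named genes are the glial channels, up to 8 called members per direction and comparison, the highest members of each list, neighbouring members, and up to 4 partners per direction; Kcnd1, Kcnd2, Kcnj6, Kcnk3 and Kcnn1 were named after their values were seen. The members and lists were chosen with earlier results of these data known. A few genes are not reported here. Promoters come from RefSeq (GRCm38.p6).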

Additional observations from a re-analysis of the deposited data

How the results depend on the processing

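No paired analysis was possible because the labels give no replicate numbers. The number of members called is given here against its main value. Where no share of all genes is given for a setting, a change in the number cannot be told from one among all genes. Without the libraries under 5000 genes, 324 of 13656 genes were called for A to E minus Neg and 304 for C. Under that setting 1671 were called for E and 439 for olfactory bulb minus cortex. A to E minus Neg (10) gave 4 after rescaling, 6 with the top transcript, 24 in the lower run of library numbers alone and 5 without the libraries under 5000 genes. B (3) gave 1 after rescaling, 0 after quantile normalization, 1 with the pseudocount of 0.1 and 1 with the run covariate. C (5) gave 0 after rescaling, quantile normalization, with the pseudocount, with the run covariate and in the lower run of library numbers alone, 12 with quality weights and 2 without the libraries under 5000 genes. E (21) gave 2 after rescaling, 5 after quantile normalization, 12 with the top transcript, 0 with the run covariate, and 5 each without the 2 shallowest libraries and without those under 5000 genes. Olfactory bulb minus cortex (11) gave 6 after quantile normalization, 4 with the top transcript and 7 without the libraries under 5000 genes. Brainstem minus cortex (4) gave 2 with the top transcript, 2 with quality weights and 1 in the lower run of library numbers alone. Olfactory bulb minus brainstem (14) gave 9 with the top transcript and 22 without the 2 libraries with genes of another region. A and D gave 0 under every setting run; D and E have no library in the lower run of library numbers. Leaving out each library in turn gave 6 to 13 for A to E minus Neg, 0 for A and D, 1 to 6 for B, 0 to 9 for C, 10 to 24 for E, 6 to 14 for olfactory bulb minus cortex, 2 to 6 for brainstem minus cortex, 10 to 20 for olfactory bulb minus brainstem and 0 to 1 for the dependence on region. The count for A to E minus Neg was 6 without olfactory bulb Neg 2, brainstem Neg 1 or brainstem Neg 2, and that for E was 10 without olfactory bulb E 1, 12 without cortex E 1 and 13 without brainstem E 1. For C it was 3 without olfactory bulb A 1, olfactory bulb A 2, cortex A 2, brainstem A 2, olfactory bulb B 2, cortex B 1, cortex C 2 or olfactory bulb D 2, 8 without brainstem B 1 and 9 without cortex D 1. In E, Kcnj10 reversed to 0.19 after rescaling and 0.12 after quantile normalization, and Kcnn2 to 0.11 without the libraries under 5000 genes. The cause of these changes was not tested. Depth limits the low members most in the 2 shallowest libraries, whose deposited intervals are the widest.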

Other observations

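The level of Kcnk1 relative to that of Kcnj10 was noticed in the values and is given by region without a test. Kcnk1 stood at 5.49 to 14.2% of the Kcnj10 level in olfactory bulb libraries of A to E (median 9.22%), at 0 to 28.5% in the brainstem (median 7.05%) and at 19.2 to 60.9% in the cortex (median 27.2%), as ratios of FPKM. The 10 olfactory bulb and 10 cortex libraries do not overlap. In Neg the ratio was 2.84 and 9.79% in the olfactory bulb, 8.20 and 29.96% in the brainstem and 11.6 and 13.0% in the cortex, so the cortical Neg libraries lie below all cortical libraries of A to E. Such a ratio within a library does not depend on the library's scale, but it does not say which of the channels changed. The ratio of Kcnj16 to Kcnj10 overlapped between the regions, with medians of 6.65% in the olfactory bulb, 8.24% in the brainstem and 8.13% in the cortex.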
